A study of Mus musculus with 18 samples.

Results

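The 10 genes described here code for regulators of chromatin and transcription in which damaging variants have been linked to autism and intellectual disability in people: Chd8, Chd2, Arid1b, Kmt2c, Ash1l, Kmt5b, Adnp, Pogz, Auts2 and Tcf4. They were taken by their symbols from the 55335 genes of the count tables, and all 10 were found. Their RNA was followed across the cell types of the mouse forebrain at embryonic day 14 (E14), and across 3 genotypes of Myt1l: wild type (WT), 1 frameshift allele (Het) and frameshift on both alleles (KO).

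These proteins act on genes in different ways. Remodellers such as CHD8 and CHD2 use ATP to move or exchange nucleosomes, and BAF complexes, to which ARID1B belongs, do the same through another motor. KMT2C, ASH1L and KMT5B add methyl groups to histone tails, ADNP and POGZ bind heterochromatin protein HP1, AUTS2 joins a form of Polycomb complex found at active neuronal genes, and TCF4 is an E protein that pairs with proneural factors to bind E-box DNA. In the developing forebrain they are read in dividing radial glia and intermediate progenitors as well as in neurons, and most are known for dose sensitivity: the loss of a single copy is enough to cause disease. MYT1L is a zinc finger transcription factor of postmitotic neurons that is itself linked to autism, and the study asked how its loss changes the developing forebrain.

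Nuclei came from the dissected forebrain of C57BL/6 embryos of the MYT1L S710fsX line, obtained from Het by Het matings. There were 3 WT, 3 Het and 3 KO animals, and each was measured in 2 runs, which gave 18 single-nucleus libraries made by combinatorial barcoding. The mutation is present in every cell from conception, so the groups differ in all cell types and not in neurons only. Counts of both runs of an embryo were added, and the embryo was the unit of replication (n = 3 per genotype). Genotypes were taken from the sample titles. A separate genotype tag read WT for all 9 libraries of run 1, which conflicts with the titles.

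After filtering, 195682 nuclei remained of 261143 barcodes. The libraries of one run shared 972 barcodes, the runs of an animal 311, and the runs of different animals 2457; all were kept. Nuclei were clustered without the 10 genes, and clusters were named from marker genes. The neuronal classes were excitatory neuron-like, with 46101 nuclei from 6 clusters, inhibitory neuron-like, with 49210 from 10, and Cajal-Retzius-like, with 3695 from 2. Progenitors were split into radial glia-like (29928 nuclei, 3 clusters), intermediate progenitors of the excitatory lineage (14786, 2 clusters; excitatory intermediate progenitor-like) and inhibitory progenitor-like (6764, 1 cluster). These classes are written below without "like". Clusters holding 22.2% of nuclei stayed unnamed, and a class of 734 diencephalic neurons came almost wholly from Het 1 (733 nuclei) and was not tested. Levels are in CPM, the share of a gene in the summed unique molecular identifiers (UMIs) of a class in an animal, scaled to a common total. Depth ranged from 12185849 to 19875402 UMIs per animal in excitatory neurons, from 9464075 to 18013940 in inhibitory neurons, from 6393825 to 11704405 in radial glia, from 2823350 to 5124996 in excitatory intermediate progenitors, from 982175 to 2857226 in inhibitory progenitors and from 982655 to 1928993 in Cajal-Retzius cells, so that the last pair of classes resolve small changes least.

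The frameshift leaves a transcript that can still be counted, so the level of Myt1l RNA does not check the genotype labels by its absence. In excitatory neurons Myt1l was at 1919, 2232 and 2101 CPM in the WT animals, 2175, 2450 and 2347 in Het and 2414, 2761 and 2445 in KO. The KO values were all above the WT values, and the change (log2 0.31, SE 0.09) had an adjusted p of 0.124 by edgeR, 0.0476 by DESeq2 and 0.00047 in the fit that blocks on replicate number. Radial glia held 55.3 ± 18.5 CPM (SD, n = 9) against 2316 ± 243 in excitatory neurons.

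All 10 genes were read in all 6 classes, and levels were ranked between genes per kilobase of gene, a choice made because nuclear RNA holds introns. On that scale Tcf4 led in excitatory intermediate progenitors (13.01 CPM per kilobase), radial glia (10.6) and inhibitory neurons (6.44). Auts2 led in excitatory neurons (9.22, with Tcf4 at 8.53) and narrowly in inhibitory progenitors (5.325, with Pogz at 5.175, Adnp at 5.151 and Tcf4 at 4.90). Kmt5b led in Cajal-Retzius cells (4.06, with Tcf4 at 2.74). Arid1b was the lowest in every class, between 1.13 and 1.61. The other 7 genes lay between 2.14 and 6.34 in every class. The order depends on the scale: in CPM Arid1b held 401 to 570, and Adnp was the lowest in every class, at 96.5 to 155.9. Whether counts scale with gene length was not tested. Auts2 is also by far the longest of the set, at 1106 kilobases on chromosome 5 (chr5:131437333-132543344, minus strand), against 345.7 for Tcf4 (chr18:69343356-69689079, plus strand), 353.3 for Arid1b (chr17:4994332-5347656, plus strand), 227.0 for Kmt2c (chr5:25271798-25498783, minus strand), 128.8 for Ash1l (chr3:88950622-89079375, plus strand) and 115.2 for Chd2 (chr7:73426638-73541830, minus strand). The short genes were Chd8 at 59.63 (chr14:52198151-52257780, minus strand), Kmt5b at 50.88 (chr19:3767421-3818303, plus strand), Pogz at 44.76 (chr3:94837567-94882326, plus strand) and Adnp at 26.13 kilobases (chr2:168180986-168207112, minus strand). Positions are those of GENCODE vM21 on GRCm38, the assembly also called mm10.

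**Figure D1:**
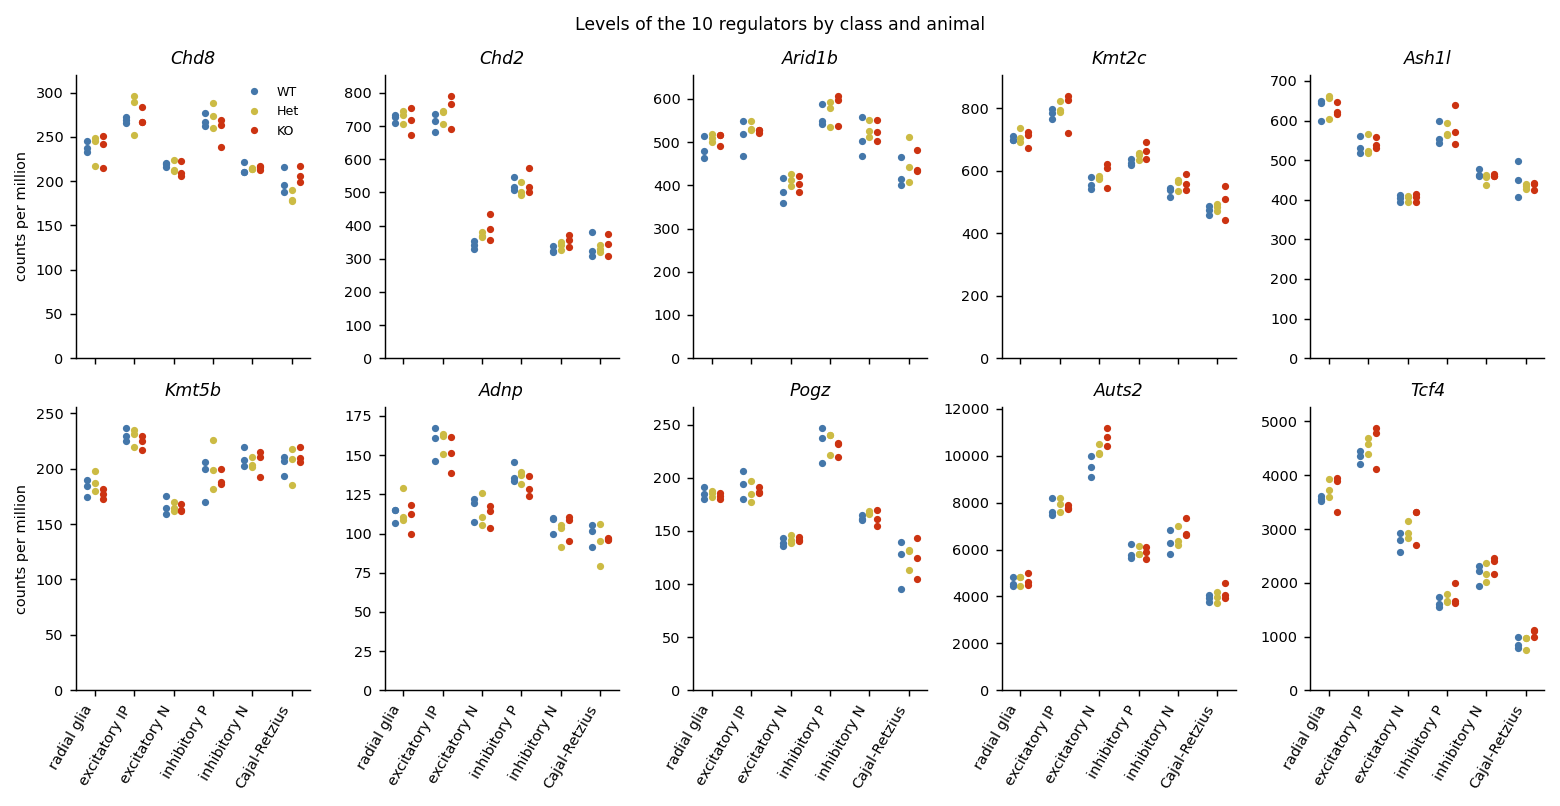
Level of each of the 10 genes (y axis, CPM, from 0) in 6 cell classes (x axis; IP, intermediate progenitor; P, progenitor; N, neuron), with 1 point per animal coloured by genotype. Auts2 is highest in excitatory neurons, Tcf4 and Chd2 in progenitors, and the 3 genotypes lie within or close to each other's range.

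The remodellers were highest in progenitors. Chd2, a remodeller whose loss causes epilepsy, was at 731 ± 36 CPM (SD, n = 9) in excitatory intermediate progenitors and 722 ± 25 in radial glia, whose ranges overlapped, and then fell without overlap to 521 ± 26 in inhibitory progenitors and to 369 ± 31 in excitatory neurons. Inhibitory neurons (340 ± 17) and Cajal-Retzius cells (337 ± 26) lay below with overlapping ranges. The log2 ratio of excitatory neurons to radial glia was −0.97 ± 0.11, below 0 in 9 of 9 animals, and that of inhibitory neurons to inhibitory progenitors was −0.61 ± 0.09, below 0 in 9 of 9. Chd8, the remodeller among the genes most often hit in autism, varied less: it ranged from 274 ± 14 CPM in excitatory intermediate progenitors through 267 ± 14 in inhibitory progenitors and 237 ± 13 in radial glia to 216 ± 7 in excitatory neurons, 215 ± 4 in inhibitory neurons and 196 ± 15 in Cajal-Retzius cells. Each neighbouring pair in that order overlapped in range. Arid1b, the BAF subunit mutated in Coffin-Siris syndrome, had another order, with 570 ± 29 CPM in inhibitory progenitors and the lowest level, 401 ± 22, in excitatory neurons.

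Among the methyltransferases, Ash1l, which methylates H3K36, was highest in radial glia and lowest in excitatory neurons. It was at 634 ± 23 CPM in the first and 404.0 ± 7.9 in the second, a log2 ratio of −0.65 ± 0.03 that was below 0 in 9 of 9 animals. Kmt2c, an H3K4 methyltransferase, was at 793 ± 37 CPM in excitatory intermediate progenitors, 706 ± 19 in radial glia and 576 ± 27 in excitatory neurons. Kmt5b, which sets H4K20 methylation, had the smallest ratio of highest to lowest class, 1.375. Its means went from 228 ± 7 CPM in excitatory intermediate progenitors to 165.4 ± 4.9 in excitatory neurons, and 207 ± 8 in inhibitory neurons could not be separated from 207 ± 11 in Cajal-Retzius cells.

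The HP1-binding genes did not share an order. Pogz was highest in inhibitory progenitors (232 ± 11 CPM), without overlap with excitatory intermediate progenitors (189.2 ± 8.9), and its log2 ratio of inhibitory neurons to inhibitory progenitors was −0.50 ± 0.07. Adnp was highest in excitatory intermediate progenitors, at 155.9 ± 9.6 CPM, with 134.6 ± 6.2 in inhibitory progenitors and 96.5 ± 8.1 in Cajal-Retzius cells. Adnp counts are uncertain. The annotation holds another gene model on the same strand, Gm20716 (chr2:168180986-168230364), that spans all of Adnp, and its counts were 97.8% to 108% of those of Adnp over 32 clusters.

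Of the 7 promoter windows that the RefSeq table held for 6 of the 10 genes (Chd8, Adnp, Arid1b, Kmt5b, Kmt2c and Pogz), 1 contained AAGTT, the core that MYT1 family zinc fingers bind, on either strand in the 250 bases before the start. Over all 32851 windows of the same length the share was 35.3%. The match of Pogz is printed because it is the only occurrence among the members. It lies 147 bases before the RefSeq start on GRCm38.p6, which is upstream of the GENCODE start given above. The stretch is at chr3:94837278-94837307, plus strand, with the motif, here as its reverse complement AACTT, in capitals.
Pogz: caggcccagacaAACTTgactagaaaagaa
A match describes letters and is not a binding site. The same windows differed in CG pairs, with 48 for Kmt2c, 37 for Arid1b, 31 for Kmt5b, 20 for Chd8, 15 for Adnp and 11 for Pogz, against a median of 6 over all windows.

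Auts2 went the other way from the remodellers. It was at 10194 ± 632 CPM in excitatory neurons, without overlap with 7822 ± 259 in excitatory intermediate progenitors, followed by 6562 ± 461 in inhibitory neurons, 5890 ± 223 in inhibitory progenitors, 4675 ± 202 in radial glia and 4027 ± 262 in Cajal-Retzius cells. The log2 ratio to radial glia was 1.12 ± 0.08 and that of excitatory to inhibitory neurons 0.64 ± 0.07, both above 0 in 9 of 9 animals. Auts2 overlaps 26 other annotated genes, 22 of them on its own strand, so part of its RNA may be counted elsewhere.

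Tcf4, mutated in Pitt-Hopkins syndrome, had the widest range. It was at 4498 ± 258 CPM in excitatory intermediate progenitors, 3675 ± 214 in radial glia, 2949 ± 264 in excitatory neurons, 2226 ± 179 in inhibitory neurons, 1695 ± 130 in inhibitory progenitors and 946 ± 129 in Cajal-Retzius cells. Inhibitory neurons thus held more than their progenitors (log2 0.39 ± 0.15), whereas excitatory neurons held less than radial glia (log2 −0.32 ± 0.08), each in 9 of 9 animals. These ratios depended on the run: with run 1 alone they were 0.57 (above 0 in 9 of 9 animals) and −0.11, where 3 of 9 animals lay above 0, and with run 2 alone 0.32 and −0.39.

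Set beside all genes, these shifts were common. With a rule of a log2 ratio beyond 0.5 and the same sign in 9 of 9 animals, 1 of the 10 genes was higher in excitatory neurons than in radial glia (Auts2) and 2 were lower (Chd2 and Ash1l), where 18.3% and 40.4% of 9595 genes passed. Between inhibitory neurons and their progenitors 0 were higher and 1 was lower (Chd2), where 18.2% and 30.9% of 9391 genes passed, with Pogz just outside at −0.497. Between excitatory and inhibitory neurons 1 was higher (Auts2) and 0 lower, against 9.98% and 11.8% of 8924 genes. The shares of the 10 genes are thus near or below those of all genes. The median ratio over all genes was −0.33 for excitatory neurons to radial glia, −0.22 for inhibitory neurons to inhibitory progenitors and −0.03 for excitatory to inhibitory neurons, so ratios of that size, such as those of Arid1b (−0.32), Kmt2c (−0.29), Pogz (−0.38) and Tcf4 (−0.32) in the first comparison, lie near the middle of all genes.

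Within the classes the 32 clusters with at least 20 nuclei in every animal resolved the range further. Tcf4 spanned a ratio of 24.0 from the lowest to the highest cluster mean, Auts2 4.95, Chd2 3.14 and Arid1b 2.59, while the other 6 genes spanned 1.72 to 2.09. Inhibitory neurons held both ends of Tcf4. Its highest level, 5556 ± 210 CPM, was in a cluster led by Nxph2, Dgkg and Maf, and its lowest, 232 ± 81, in a cluster led by Bnc2 and Stk32a. Clusters led by genes known from striatal neurons were also low, at 265 ± 98 CPM (Ikzf1, Rarb, Tac1), 447 ± 87 (Drd2, Six3) and 589 ± 180 (Zfp503, Ebf1, Isl1), while the cluster led by Lhx6 and Sst was at 3978 CPM. Excitatory neurons ranged from 4838 CPM in the cluster led by Cemip, Adamtsl3 and Nrp1 through 1292 (Rgs6, Hs3st4, Nfe2l3) to 788 (Il1rapl2, Nr4a2).

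Auts2 did not fall in step with Tcf4. It peaked at 12631 CPM in the excitatory cluster led by Slit3 and Nr4a3 and stayed at 10117 CPM in the cluster led by Rgs6 and Hs3st4, where Tcf4 was low. Its lowest levels were 2550 ± 205 CPM in the radial glia cluster led by Gm29521, Sned1 and Wnt8b and 3278 CPM in an unnamed cluster led by Otx2 and Lrp2. In that Wnt8b cluster Tcf4 was at 4966 CPM, near its top. The remaining genes moved over narrow ranges. Chd2 ran from 238 to 749 CPM, Arid1b from 254 to 659, Kmt2c from 427 to 850, Ash1l from 352 to 658, Kmt5b from 138 to 242, Chd8 from 164 to 282, Pogz from 114 to 238 and Adnp from 80.2 to 158. The cluster led by Eomes and Kif26b was the highest of 32 for Chd8, Kmt2c, Kmt5b and Adnp, and the cluster led by Pappa2 and Car10 was the lowest for Chd8, Chd2, Kmt2c and Adnp. Arid1b peaked instead in the cluster led by Zfp503 and Ebf1, at 659 ± 49 CPM.

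**Figure D2:**
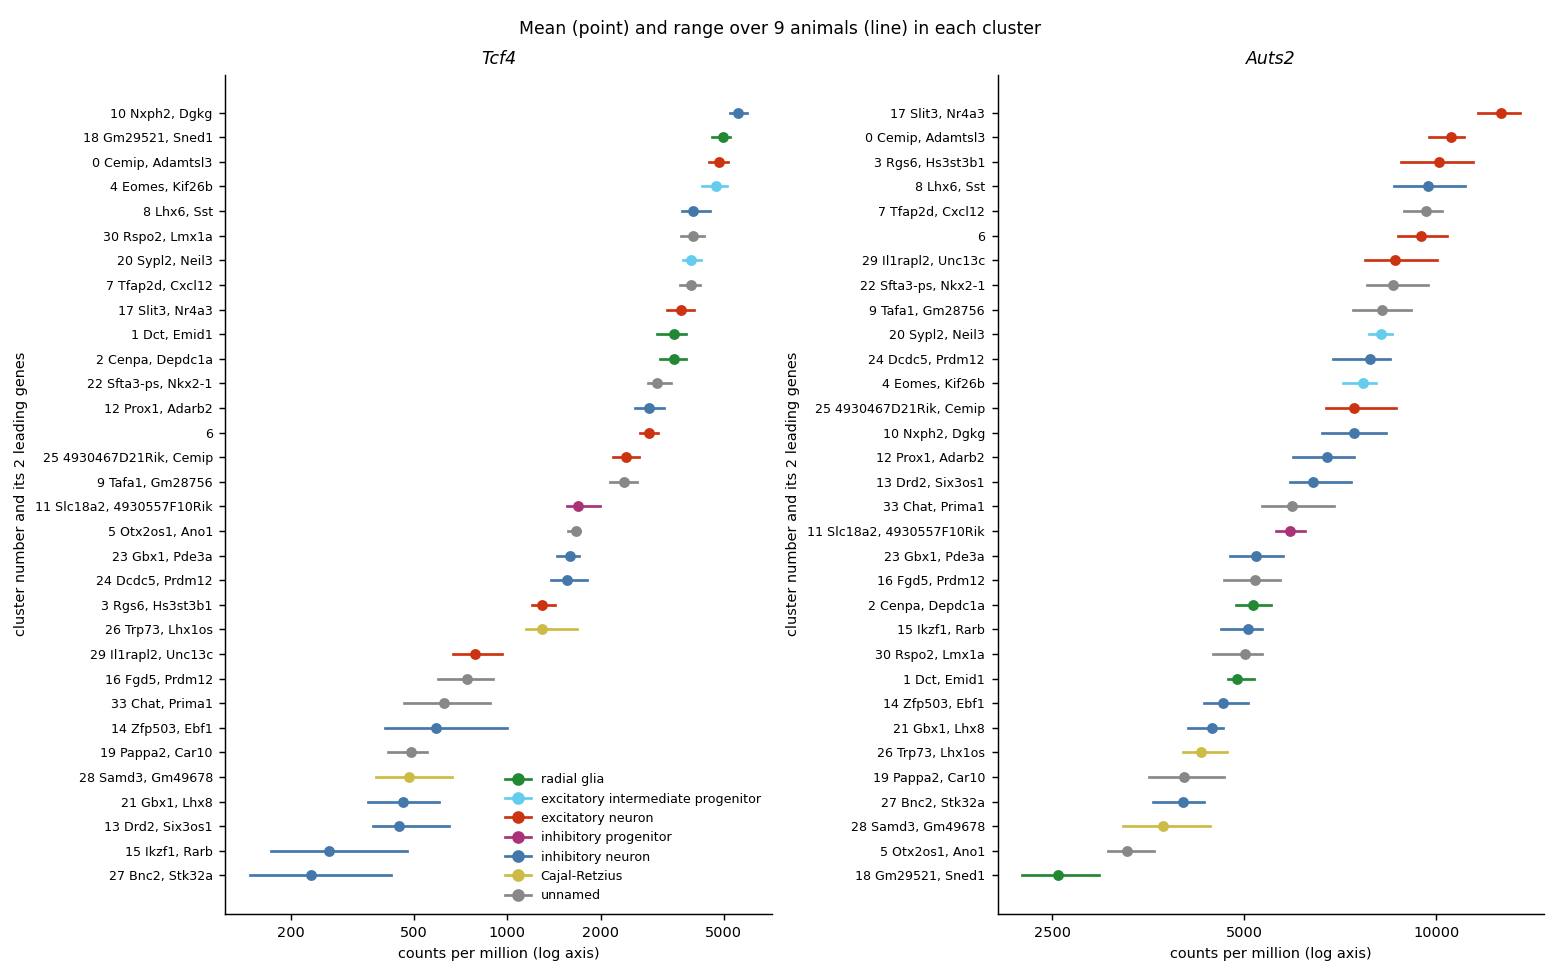
Tcf4 (left) and Auts2 (right) in each of the 32 clusters, as the level in CPM on a log axis (x), with points for the mean and lines for the range over 9 animals, coloured by class. Each panel is ordered by its own level, and 1 cluster is labelled by number only. Tcf4 spans a ratio of 24.0 between cluster means and Auts2 4.95, and the order of clusters differs between them.

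Over the 32 cluster means on the log2(CPM + 1) scale, Chd8 and Adnp varied most alike (Pearson r = 0.90, across clusters that share animals and libraries), followed by Chd8 and Chd2 (0.87) and Chd2 and Ash1l (0.84), while Auts2 reached at most 0.42, with Tcf4 (0.06 with Chd2, −0.28 with Ash1l). Among all other genes of at least 20 CPM, the pattern most like Chd8 was that of Crebbp (r = 0.97), then Crkl (0.96). For Chd2 it was Gm37988 (0.96), then Cdk12 (0.96), for Ash1l Axin1 and Eif4enif1 (0.94 each), for Pogz Taf3 (0.90) and Snrnp200 (0.89), for Kmt2c Bmpr2 (0.89) and Syne2 (0.84), for Kmt5b Ubn2 (0.86) and Trappc6b (0.80), and for Tcf4 Gm3764 (0.92) and Gm20687 (0.87). Arid1b had no close match (Trim39 at 0.65, Slc36a4 at 0.63). The closest to Auts2 were Gm42993 and Gm42992 (0.99 each), both inside Auts2 on its strand, and the closest to Adnp was Gm20716 (0.99), the model that spans it, then 2700081O15Rik (0.94).

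The second question was whether loss of MYT1L changed these genes. By edgeR's quasi-likelihood test with Benjamini-Hochberg adjustment over all genes (a call is an adjusted p under 0.05 and a log2 change beyond 0.2), 0 of the 10 genes were called in KO against WT in any of the 6 classes, and 0 in Het against WT. DESeq2 also called 0 in each. Unadjusted p-values under 0.05 were found for Auts2 and Chd2 in excitatory neurons (2 of 10) and for Tcf4 in Cajal-Retzius cells (1 of 10) in KO, and for 0 of 10 in the other classes and in Het. The background for KO was 1.04% of 18054 genes in excitatory neurons, 0.0271% in inhibitory neurons, 0.0633% in Cajal-Retzius cells and 0% in the other classes, and for Het it was 0% throughout. A count of 0 of 10 cannot be told from shares this low. An unadjusted p under 0.05 was found for 12.7% of all genes (2290) in excitatory neurons and 6.93% (767 of 11065) in Cajal-Retzius cells for KO, for 3.58% (646) in excitatory neurons for Het, and for 1.85% to 6.07% in the other classes and contrasts. The 187 genes called in excitatory neurons became 50 to 343 when single animals were left out.

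Auts2 in excitatory neurons was at 9112, 9982 and 9529 CPM in the WT animals, 10123, 10511 and 10075 in Het and 11191, 10806 and 10416 in KO. Every KO value was above every WT value, and so was every Het value. The KO change was log2 0.20 (SE 0.07, 95% interval 0.06 to 0.35, adjusted p 0.200) and the Het change 0.11 (SE 0.07, adjusted p 0.998). The labels do not say that replicate numbers pair animals, and a pairing was taken from how the animals deviated together in these data. With the number as a block the KO change kept its size (log2 0.20, SE 0.05) and was called at an adjusted p of 0.0161. That fit calls 5.96% of all genes. Run 1 alone gave log2 0.16 and run 2 alone 0.21, and leaving out single animals gave 0.16 to 0.26.

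Chd2 in excitatory neurons was at 355, 342 and 329 CPM in WT, 369, 380 and 367 in Het and 435, 389 and 356 in KO. The Het values were all above the WT values, and the lowest KO value lay just above the highest WT value, at 355.7 against 354.7 CPM. The KO change was log2 0.23 (SE 0.08, 95% interval 0.06 to 0.39, adjusted p 0.218) and the Het change 0.13 (SE 0.08, adjusted p 0.998). With the block the KO change was 0.22 (SE 0.06) and was called at an adjusted p of 0.0234. Leaving out single animals gave log2 0.15 to 0.31, and it was called only without KO replicate 3, at 0.31. Run 1 alone gave 0.16 and run 2 alone 0.23. The noncoding gene 1810026B05Rik, which overlaps the start of Chd2 on the same strand and whose RNA is known to hold Chd2 down, was at 69.7 ± 3.7 CPM (SD, n = 9) in excitatory neurons, with a KO change of log2 −0.02 (SE 0.07, adjusted p 0.952). It was named after the overlap and its values were seen, and its part in the Chd2 values was not tested.

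Tcf4 in excitatory neurons was at 2573, 2917 and 2805 CPM in WT, 2829, 3141 and 2932 in Het and 3321, 3324 and 2698 in KO. KO replicate 3 lay within the WT range and the other KO animals above it, with a change of log2 0.20 (SE 0.10, adjusted p 0.429, and 0.0915 with the block). Leaving out single animals gave log2 0.13 to 0.31. In Cajal-Retzius cells Tcf4 was at 785, 983 and 847 CPM in WT and 1098, 1122 and 989 in KO, without overlap, for log2 0.31 (SE 0.13, adjusted p 0.667, and 0.329 with the block).

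**Figure D3:**
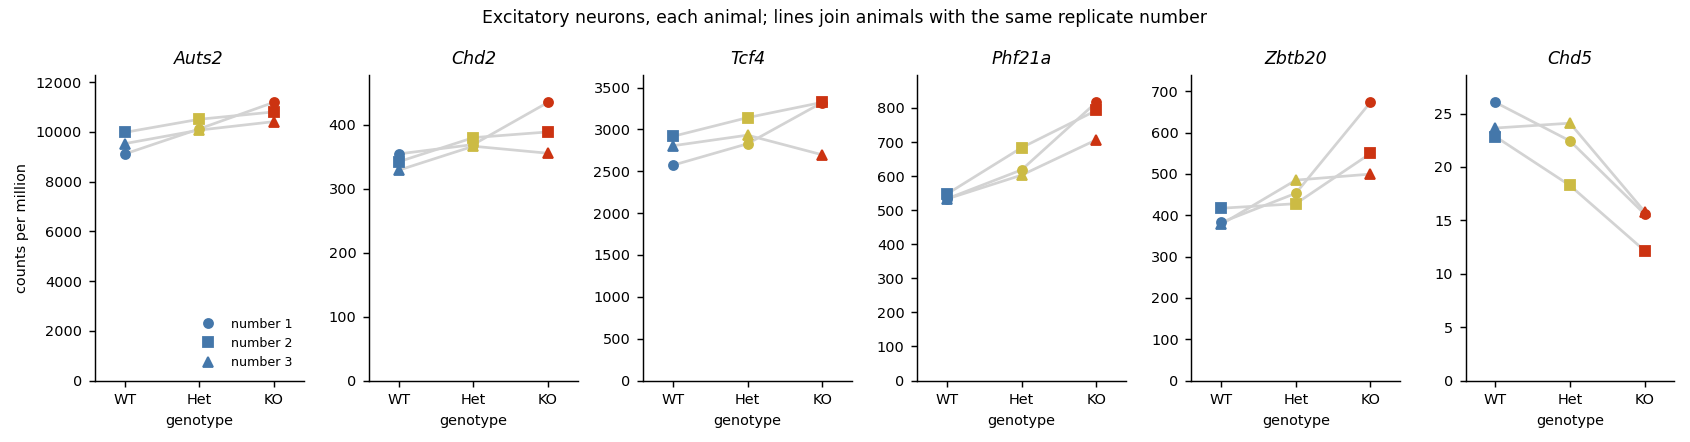
Level in excitatory neurons (y axis, CPM, from 0) of Auts2, Chd2, Tcf4, Phf21a, Zbtb20 and Chd5 in each animal by genotype (x axis), with grey lines joining animals of the same replicate number. The KO points of Auts2 lie between 10416 and 11191 CPM, all above the WT points.

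Auts2 and Chd2 were thus 2 of 10 members with every KO animal above every WT animal in excitatory neurons, beside 7.41% of all genes tested, and 2 of 10 for Het, beside 4.49%. Tcf4 in Cajal-Retzius cells was 1 of 10, beside 6.12%. With 10 genes these counts cannot be told from such shares. For the other 7 genes the WT and KO animals overlapped in excitatory neurons. Their KO changes were log2 0.11 for Kmt2c, 0.09 for Arid1b, 0.05 for Pogz, 0.03 for Ash1l, 0.01 for Kmt5b, −0.02 for Chd8 and −0.03 for Adnp, with SE from 0.05 to 0.08. Over all 10 genes and this class the 95% intervals ran from −0.21 to 0.40 on the log2 scale, so larger changes than that are outside the interval of each gene. The median change was 0.07, with 8 of 10 above 0, beside −0.01 and 47.7% above 0 over all genes. In inhibitory neurons 10 of 10 were above 0 with a median of 0.06, led by Auts2, Tcf4 and Chd2 at 0.15 each, and the KO and WT animals overlapped for every gene. The 10 above 0 became 6 without KO 2, 7 without WT 1, 8 without WT 3 and 8 in run 1 alone. Over all genes 48.1% were above 0 in this class, and 56.63% of genes from 50 to 200 kilobases and 64.75% of longer ones. There the adjusted p was 0.858 or more, and with the block, which calls 1.07% of all genes in this class, 0 of 10 were called. For Het, Pogz was the 1 of 10 whose animals (166 to 168 CPM) all lay above the WT animals (161 to 165) in this class, beside 2.85% of all genes. The remaining median KO changes were 0.003 in radial glia, 0.03 in excitatory intermediate progenitors, 0.01 in inhibitory progenitors and 0.07 in Cajal-Retzius cells.

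Gene length moved with these values in both mutant groups. In excitatory neurons the median KO change was −0.03 for genes under 50 kilobases, 0.02 from 50 to 200 and 0.04 above 200, and the median Het change −0.02, 0.02 and 0.04. Auts2, Arid1b, Tcf4 and Kmt2c are above 200 kilobases, and Chd2, Ash1l, Chd8 and Kmt5b lie between 50 and 200. The part of length in the changes above was not tested. Summed markers of inhibitory neurons in the excitatory class lay between 79.2 and 125.0 CPM in the WT animals, 95.9 and 151 in the Het animals and 75.8 and 118 in the KO animals, which overlap.

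The KO change was then compared between excitatory and inhibitory neurons. In the test of that difference (edgeR, with the animal as a block) 0 of 10 genes were called, beside 0.0413% of 19352 genes, and 0 had an unadjusted p under 0.05. The differences, excitatory minus inhibitory, ran from −0.06 for Chd8 to 0.07 for Chd2 (95% interval −0.06 to 0.20), with 0.04 for Auts2 (−0.06 to 0.15) and 0.03 for Tcf4 (−0.07 to 0.14).

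**Figure D4:**
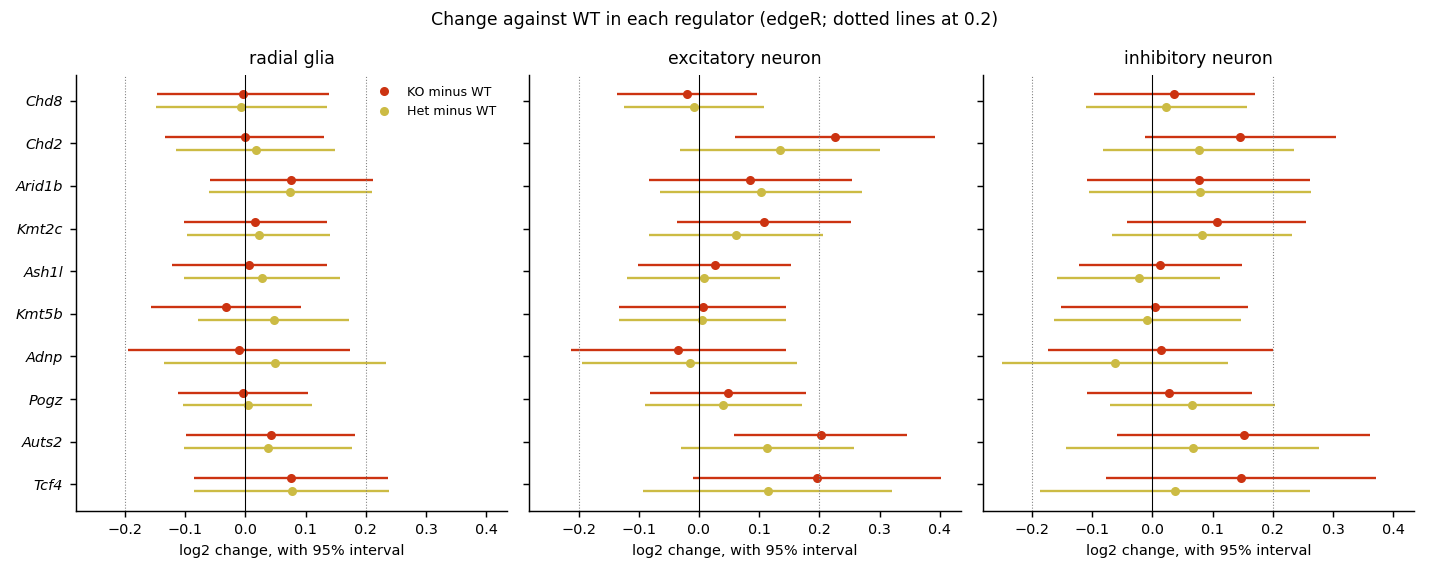
Log2 change against WT (x axis) of each of the 10 genes (y axis) for KO and Het in radial glia, excitatory neurons and inhibitory neurons, with 95% intervals from edgeR as bars and dotted lines at 0.2. Of the intervals drawn, those of Auts2 and Chd2 in KO excitatory neurons leave out 0, and 0 of the changes passed the adjusted test.

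In the 32 clusters the same test called 0 of 320 pairs of gene and cluster (background 0.294% of 337318), and with the block 7 of 320 (background 0.94%). They included Auts2 in the excitatory clusters led by Rgs6 and Hs3st4 (log2 0.29) and by Il1rapl2 and Nr4a2 (0.27), in the inhibitory cluster led by Nxph2 and Maf (0.22) and in the unnamed clusters led by Tafa1 and Sim1 (0.22) and by Pappa2 and Car10 (0.29), and Chd2 in the Tafa1 cluster (0.33). In the Rgs6 cluster Auts2 was at 8806, 9604 and 9168 CPM in WT and 11417, 10988 and 10762 in KO, without overlap. In the Tafa1 cluster Chd2 was at 247, 260 and 258 CPM in WT and 357, 306 and 285 in KO, also without overlap. Both clusters are shown because the block called the gene there, so separation follows in part from that choice. The share of all genes without overlap is not given by cluster. The KO estimate of Auts2 was above 0 in 32 of 32 clusters (0.01 to 0.29, median 0.13), that of Kmt2c in 31, of Chd2 and Tcf4 in 30, of Arid1b in 25, of Pogz in 19, of Chd8 and Ash1l in 15, of Adnp in 12 and of Kmt5b in 10. The clusters come from the same 9 animals and do not count as separate evidence. Among all genes above 200 kilobases, 60.5% of KO changes were above 0 in excitatory neurons, 64.75% in inhibitory neurons and 65.56% in radial glia. Auts2, Kmt2c, Tcf4 and Arid1b are of that length, and Chd2 is shorter. Myt1l itself was called higher in 6 of the 32 clusters and in 10 with the block.

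Among inhibitory neuron clusters the largest KO estimates of Tcf4 (0.29 to 0.34, 0 called) fell in 5 clusters where its level is low, with wide spread between animals. In the cluster led by Ikzf1 and Rarb it was at 301, 183 and 208 CPM in WT and 475, 172 and 222 in KO, and in the cluster led by Zfp503 and Ebf1 at 674, 416 and 480 in WT and 998, 403 and 547 in KO. KO 1 was the highest of 9 animals in both, and KO 2 the lowest. The summed level of the 10 excitatory neuron markers in inhibitory neurons was highest in the same animal, at 487 CPM in KO 1, with 435 in Het 1, 361 in WT 1 and 268 to 337 in the other 6. Its part in these Tcf4 values was not tested.

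**Figure D5:**
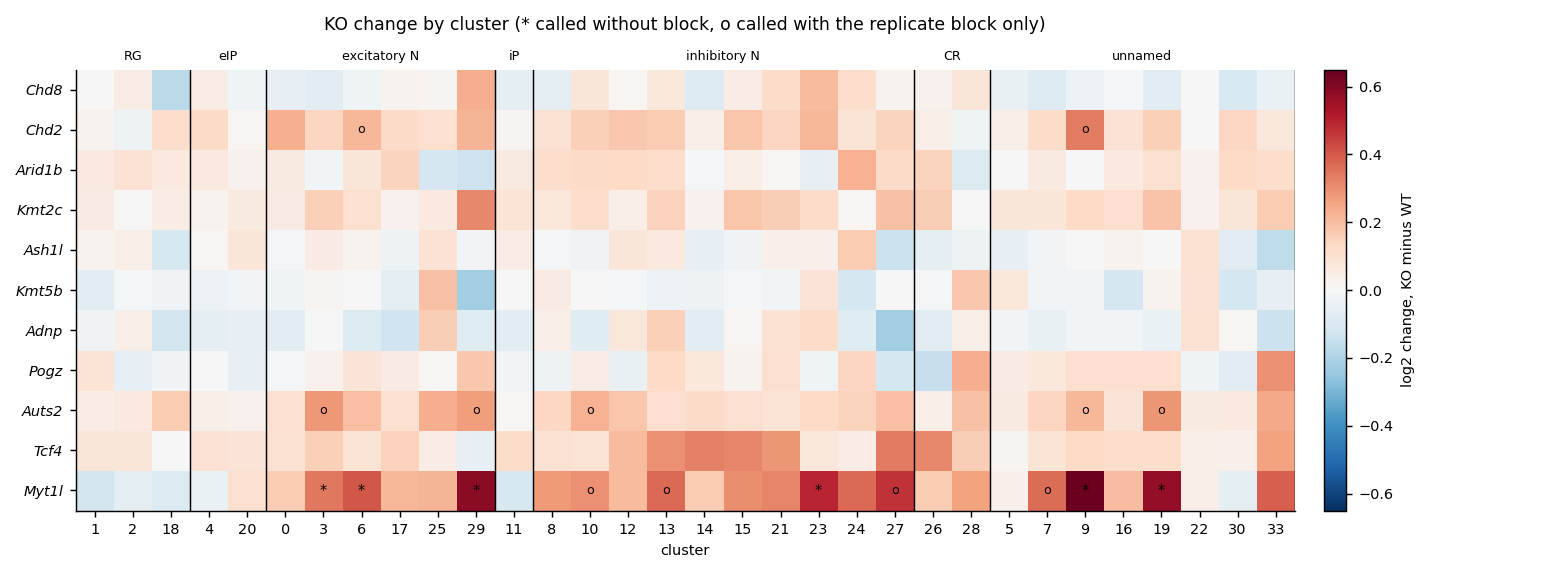
Log2 change of KO against WT (colour) for the 10 genes and Myt1l (rows) in the 32 clusters (columns, grouped by class). Auts2 is above 0 in every cluster and Myt1l reaches 0.64, while Kmt5b, Adnp, Chd8 and Ash1l are on either side of 0.

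The wider families gave a frame for the set. Of 102 relatives and partners in 8 lists, 100 were tested in excitatory neurons, and in KO 2 were called higher and 1 lower, beside 1.04% of all genes, or 6 and 2 with the block, beside 5.96%. By list, 0 of 22 BAF and PBAF subunits, 0 of 13 members of H3K4 methyltransferase complexes, 0 of 6 H3K36 and H4K20 methyltransferases, 0 of 5 HP1 and ChAHP partners of Adnp and Pogz, 0 of 9 partners and relatives of Auts2 and 0 of 4 E proteins and Id inhibitors were called, 1 of 7 other CHD remodellers was called lower, and 2 of 34 other autism-linked regulators were called higher. The lists' median KO changes lay between −0.04 and 0.08, beside −0.01 over all genes. For Het 0 of the lists' genes were called in any class. The lists were chosen with earlier results of these data known. The 2 autism-linked regulators called higher, Phf21a and Zbtb20, are named in the study's paper as dysregulated in these E14 data. Their count is therefore not independent of these data.

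Phf21a, a reader of unmethylated H3K4 in the LSD1 corepressor complex, was at 533, 548 and 533 CPM in WT excitatory neurons, 618, 683 and 603 in Het and 816, 793 and 706 in KO. It rose by log2 0.55 in KO (SE 0.08, adjusted p 0.00724), and by 0.68 in Cajal-Retzius cells (SE 0.11, adjusted p 0.0346). In inhibitory neurons it was at log2 0.48 (SE 0.09), with an adjusted p of 0.169 by edgeR, 0.00237 by DESeq2 and 0.00017 with the block. Zbtb20, a zinc finger repressor known from the developing hippocampus, was at 383, 417 and 378 CPM in WT and 673, 549 and 500 in KO, and rose by log2 0.57 (SE 0.10, adjusted p 0.0178). Chd5, a neuronal remodeller of the NuRD type, was at 26.0, 22.8 and 23.6 CPM in WT and 15.6, 12.2 and 15.8 in KO, and fell by 0.71 on the log2 scale (SE 0.11, adjusted p 0.0120). The KO and WT animals did not overlap for these 3 genes in excitatory neurons, as for 7.41% of all genes in the higher and 9.36% in the lower direction, and the genes were chosen by their calls in the same animals. There the calls of Phf21a and Chd5 held when any of the 9 animals was left out (highest adjusted p 0.0390 and 0.0479), while that of Zbtb20 was lost without WT 1 (0.0669), WT 3 (0.0828) or KO 2 (0.0553). With run 1 alone none of the 3 was called (Phf21a log2 0.52, Zbtb20 0.41, Chd5 −0.67), in a fit that called 0 genes. The call of Phf21a in Cajal-Retzius cells was lost when WT 1, WT 3, Het 2, Het 3, KO 1 or KO 2 was left out (adjusted p 0.0515 to 0.436) and within either run (run 2 alone 0.0676).

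For these 3 genes, the relatives that changed, stretches of 30 bases around each AAGTT or its reverse complement (in capitals) are shown, plus strand, GRCm38.p6. They lie at chr2:92185233-92185262, chr2:92221306-92221335 and chr2:92221408-92221437 for Phf21a, chr16:43247227-43247256 for Zbtb20 and chr4:152338534-152338563 for Chd5, within 250 bases of an annotated start. Stretches 2 and 3 of Phf21a lie before the same start.
Phf21a, stretch 1: ctgcAACTTgttattccgaggagtccgcct
Phf21a, stretch 2: gcaaaacccagaAAGTTttggtactgaatt
Phf21a, stretch 3: atttaattataaAAGTTtcttcattcccaa
Zbtb20: ggtttaatagttAACTTtcagaacaagggg
Chd5: actagtccccccAACTTgttctcggctgtt
The RefSeq table held 2 promoter windows for Phf21a, 1 for Zbtb20 and 2 overlapping ones for Chd5, and all 5 contained the motif in the 250 bases before the start, beside 35.3% of all windows of that length. The stretches were chosen for holding it, and its presence is a description only.

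The genes that the block alone called in excitatory neurons are given as values, beside the 5.96% above. Ss18 (log2 0.28), Tcf3 (0.27), Tcf12 (0.24) and Tbl1xr1 (0.21) were called higher, and Mef2c (−0.21) lower, at adjusted p from 0.0115 to 0.0334. Tcf3 and Tcf12 are the other E proteins, which pair with the same partners as TCF4, and Ss18 is a BAF subunit. In inhibitory neurons the block called 3 of 101, beside 1.07% of all genes: Dpf3 (0.33), Zbtb20 (0.29) and Phf21a (0.48), of which DESeq2 without the block also called Phf21a. These genes were named after their values were seen.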

How the data were processed

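Per the labels and the study's methods, the authors mapped reads of ScaleBio libraries to mm10 with the kit maker's pipeline and deposited estimated counts (expected counts) of UMIs per gene and nucleus, some not whole. The submitters' processing notes name Seurat 4.3.0, DESeq2 1.38.3 and Scanpy 1.12.0. Whether strand was used in counting, and which annotation release, is not stated in what was read, which leaves overlapping genes uncertain. The 10 gene identifiers matched GENCODE vM21 with their versions.

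Nuclei were kept with the study's limits (between 800 and 6000 UMIs and between 300 and 3000 genes, mitochondrial share up to 1%, log genes over log UMIs from 0.9), which left 200774 barcodes, and those above each library's 5% limit for a simulated-doublet score were removed. Fewer nuclei remained than the study states. The remaining nuclei were clustered on 3000 variable genes without the members, 50 principal components and 20 neighbours (Leiden resolution 1, igraph 0.11.9). Results for 1 withheld item are not reported here. A class name needed 3 markers, and a tie with another class's markers among the 10 leading genes, a rule set after seeing the data, left a cluster unnamed. Counts were summed per animal and class, rounded, and tested with edgeR 4.0.16 (filterByExpr, TMM, genotype, 9 animals, R 4.3.3) and, as alternatives, DESeq2 1.42.0 and other settings. Class ratios are means over animals of log2((CPM + 1)/(CPM + 1)) and carry no test. The fits were tested on simulated data.

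Same-numbered animals deviated together in the data (every pair's r above 0.1 in 5 of 6 classes, lowest 0.063 in Cajal-Retzius cells). Median r by class was 0.176 to 0.548 for same numbers and −0.399 to −0.122 for other numbers. The separation was not clean: the highest pair of other numbers reached 0.183 in Cajal-Retzius cells, above the lowest same-number pair. In excitatory neurons it reached 0.22, beside a lowest same-number pair of 0.223. Replicate numbers were taken to pair the animals on this basis, and the blocked values are given beside results they change. The study's methods describe 3 biological replicates per genotype from several litters. The members and lists were chosen with earlier results of these data known. Named were the 10 members, Myt1l, genes of the wider lists called in a class (at most 3 per direction and class) and the 2 genes most like each member. Genes of the lists called only in the blocked fit were named beyond this rule, after their values were seen.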

Additional observations from a re-analysis of the deposited data

Results flagged for a closer look

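The KO change of Chd5, a relative of Chd8 and Chd2, differed between neuron classes: excitatory minus inhibitory was −0.52 on the log2 scale (SE 0.08, 95% interval −0.69 to −0.36, adjusted p 0.0287 by edgeR's test of the difference itself). The call was lost without WT 1 (adjusted p 0.203), WT 2 (0.163), WT 3 (0.0982), Het 3 (0.0534), KO 1 (0.0718), KO 2 (0.124) or KO 3 (0.0789) and within either run (−0.34 in run 1 alone, and −0.59, adjusted p 0.0658, in run 2 alone), while the difference stayed between −0.56 and −0.49 when animals were left out. The 10 members and their class values met none of the criteria for a closer look, which with 3 animals per genotype include no check for outlying animals.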

How the results depend on the processing

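In the fits with a replicate block, which use the pairing found in the data, the count of members called in KO excitatory neurons went from 0 to 2 and the count over clusters (an alternative chosen after seeing the data) from 0 to 7; it changed no other member count. Leaving out single animals gave 0 to 1 (Chd2, without KO replicate 3). Over all genes in KO excitatory neurons 187 were called, and 292 with DESeq2, 702 without a filter on low counts, 1076 with the block, 96 with the 6 animals compared, 0 with run 1 alone and 147 with run 2 alone; in inhibitory neurons 5 became 31, 118, 198 and 0 with the first 4 of these. Leaving out single animals gave an excitatory count of 67 (WT 1 absent), 81 (WT 2), 50 (WT 3), 115 (KO 1), 64 (KO 2) or 343 (KO 3), and 130 to 148 with a Het animal absent, while the inhibitory count was 0 with any WT animal absent and 1 to 3 otherwise. The 8 genes whose change differed between these classes became 0 in run 1 alone, 12 in run 2 alone and 1 to 18 when animals were left out (WT 1 absent 4, WT 2 absent 5, WT 3 absent 1, Het 1 absent 16, Het 3 absent 2, KO 1 absent 5, KO 2 absent 1, KO 3 absent 18). Members past the class rule between inhibitory neurons and their progenitors numbered 1, and 2 in run 1 alone (Tcf4 joined), run 2 alone and at Leiden resolution 0.5 (Pogz joined in both), with 1 to 2 when animals were left out (2 without WT replicate 2, Het replicate 2, KO replicate 2 or KO replicate 3); for excitatory over inhibitory neurons 1 became 2 at resolution 0.5, where Tcf4 passed at 0.52. Small KO changes turned sign: Kmt5b in excitatory neurons with no filter (−0.00103), run 1 alone (−0.058), no upper limits (−0.0024) and resolution 0.5 (−0.00041), Kmt5b in inhibitory neurons with no filter (−0.0075), run 1 alone (−0.049) and resolution 0.5 (−0.0023), Adnp there in run 1 alone (−0.0094) and Ash1l there in run 2 alone (−0.015). Leaving out single animals gave −0.027 to 0.067 for Kmt5b and −0.10 to 0.017 for Adnp in excitatory neurons, and −0.041 to 0.051 for Kmt5b, −0.043 to 0.069 for Adnp, −0.0073 to 0.044 for Ash1l and −0.019 to 0.052 for Pogz in inhibitory neurons. The cause of these shifts was not tested. Of 282 counts of members 271 stayed within 1.5 times the reported count and 11 rose beyond it. Of 380 member changes 24 turned sign, 3 became called and 353 did neither. Of 420 class ratios 407 moved by less than 1 SD and 13 by more, with their sign kept.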
